A study of Mus musculus with 56 samples.

Results

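Immunoglobulin transcripts of the mouse male reproductive tract were examined through the 231 genes that GENCODE M21 classes as immunoglobulin constant (IG_C_gene) or variable (IG_V_gene) genes, matched by Ensembl identifier among the 53379 genes of the count table. They comprise 13 constant genes (8 of the heavy chain, 1 of the kappa light chain and 4 of the lambda light chain) and 218 variable (V) genes (113 heavy, 102 kappa and 3 lambda). Of these, 218 had at least 1 read in some library, and 13 V genes had none. RNA sequencing had been performed on 56 libraries from C57BL/6 male mice, taken at 3 and 21 months of age from the vas deferens, from the cauda, corpus and caput of the epididymis, from the initial segment, from the efferent ductules and from the testis, with 4 libraries for each region and age. No animal carried a transgene or received a treatment according to the labels. The study's methods state that 4 mice of each age were dissected and that the organs of both sides of a mouse were used, so the 7 regions of one age come from the same 4 mice. The labels number the libraries of a group from 1 to 4 without saying that a number marks a mouse.

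An antibody consists of paired heavy and light chains, each with a constant region and a variable region. The constant gene of the heavy chain sets the isotype (IgM from Ighm, IgD from Ighd, the IgG subclasses from Ighg1, Ighg2b, Ighg2c and Ighg3, IgA from Igha and IgE from Ighe), and light chains use kappa (Igkc) or lambda (Iglc1 to Iglc4). During B cell development a V gene is joined to short diversity and joining segments, and the progeny of one B cell keep this V gene, so a V gene that takes a large share of the V reads in a sample can mark an expanded clone, although several clones may use the same V gene. Plasma cells, the antibody-secreting descendants of B cells, hold far more immunoglobulin mRNA than resting B cells, and IgA with the J chain (Jchain) is the isotype typical of mucosal surfaces.

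Library depth ranged from 11125279 to 20561967 assigned reads, with a median of 16384049, and levels are given as CPM, the reads of a gene scaled to a common library size with TMM factors over all 56 libraries. Region markers followed the labels, for example Prm2 at 2782 ± 342 CPM (SD, n = 4) in the testis at 3 months and Akr1b7 at 22468 CPM in the vas deferens at that age. Exceptions were the efferent ductules at 21 months, where Adam28, a marker of the adjoining initial segment, was at 0.183, 133, 68.6 and 0 CPM in replicates 1 to 4, and replicate 3 of the cauda at 3 months, whose summed macrophage and dendritic cell markers were 990 CPM against a group median of 184 CPM. Some region markers also differed with age, with 3 of 7 called higher at 21 months in the vas deferens and Spint3 called higher in the initial segment, from 2.43 ± 0.251 to 4.01 ± 0.674 CPM (SD, n = 4), and with Prm2 called lower in the initial segment and Prm2 and Rnase13 called lower in the caput. The noncoding RNA gene Gm42418 took 49.7% of the reads in replicate 2 of the caput at 3 months. The tissue is bulk, so more cells of a type and more RNA per cell cannot be told apart in any result given here.

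Some of the V segments that led their chain in single regions or libraries are shown first, because the distribution of reads over them carries the results on dominance. Each is given as its last 150 bases in the direction of the gene, read from the GRCm38 genome, with capitals from the last in-frame cysteine codon, after which the CDR3 loop of the antigen-binding site begins, to the end of the segment. Ighv14-2 (chr12:113994469-113994618, minus strand) and Igkv14-126 (chr6:67896493-67896642, plus strand) were abundant in the corpus, Ighv11-2 (chr12:114048241-114048390, minus strand) in single libraries of the corpus and vas deferens, Ighv1-9 (chr12:114583569-114583718, minus strand) and Igkv19-93 (chr6:68736297-68736446, minus strand) in efferent ductules and vas deferens of replicate 2 at 21 months, Ighv1-26 (chr12:114788372-114788521, minus strand) in replicate 4 of the vas deferens and cauda and replicate 1 of the efferent ductules at 21 months, Igkv3-2 (chr6:70698918-70699067, plus strand) in libraries of several regions and replicate numbers at that age, and Ighv1-84 (chr12:115980702-115980851, minus strand) and Igkv4-63 (chr6:69377944-69378093, minus strand) in the testis, with Igkv4-63 also leading 1 cauda library at 21 months.
Ighv14-2: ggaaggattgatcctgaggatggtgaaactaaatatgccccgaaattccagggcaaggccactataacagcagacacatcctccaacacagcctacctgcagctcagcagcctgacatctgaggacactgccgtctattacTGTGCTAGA
Igkv14-126: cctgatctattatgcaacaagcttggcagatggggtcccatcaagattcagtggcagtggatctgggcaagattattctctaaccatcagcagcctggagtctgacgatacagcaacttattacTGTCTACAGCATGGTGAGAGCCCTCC
Ighv11-2: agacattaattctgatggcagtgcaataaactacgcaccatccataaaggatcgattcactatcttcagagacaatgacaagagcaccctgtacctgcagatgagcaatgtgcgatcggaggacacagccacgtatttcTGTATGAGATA
Ighv1-9: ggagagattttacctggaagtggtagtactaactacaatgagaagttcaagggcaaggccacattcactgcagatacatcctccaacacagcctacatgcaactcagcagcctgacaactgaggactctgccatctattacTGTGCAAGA
Igkv19-93: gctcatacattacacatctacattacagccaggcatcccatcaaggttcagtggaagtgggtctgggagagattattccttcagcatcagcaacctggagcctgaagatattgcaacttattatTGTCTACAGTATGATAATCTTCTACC
Ighv1-26: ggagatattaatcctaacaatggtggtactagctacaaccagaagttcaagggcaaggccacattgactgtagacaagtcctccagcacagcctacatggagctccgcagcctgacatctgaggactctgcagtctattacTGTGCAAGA
Igkv3-2: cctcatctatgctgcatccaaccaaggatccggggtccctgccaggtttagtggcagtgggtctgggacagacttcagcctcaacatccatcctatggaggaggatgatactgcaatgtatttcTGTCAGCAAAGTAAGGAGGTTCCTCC
Ighv1-84: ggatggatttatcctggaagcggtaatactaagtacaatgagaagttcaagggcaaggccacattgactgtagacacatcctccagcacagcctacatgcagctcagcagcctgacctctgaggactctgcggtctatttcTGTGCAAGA
Igkv4-63: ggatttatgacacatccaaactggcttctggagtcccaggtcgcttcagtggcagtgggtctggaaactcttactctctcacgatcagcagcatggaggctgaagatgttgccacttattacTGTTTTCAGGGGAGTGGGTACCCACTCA
Over these 150 bases the closest other V gene was Ighv14-3 for Ighv14-2, with 7 differences. It was Ighv11-1 for Ighv11-2, with 2 differences, so reads of this pair could be exchanged in counting, although Ighv11-1 had only 4 reads in all libraries. Ighv1-26 also had 2 differences from its closest relative, Ighv1-18, which had 197 reads in all libraries, so reads of this pair could be exchanged as well. The closest relatives of the other printed segments differed at 8 to 26 positions. Among all 218 V genes, 5 shared at least 50% of their 100-base words with another immunoglobulin gene and 132 shared none.

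The summed level of the 13 constant genes was higher at 21 than at 3 months in all regions by its mean, and the size of the difference ran from 2.92-fold in the caput to 39.7-fold in the vas deferens. In the vas deferens the 4 libraries were at 25.6, 39.0, 38.2 and 19.4 CPM at 3 months and at 1290, 834, 979 and 1748 CPM at 21 months. The efferent ductules went from 36.5, 44.8, 23.8 and 27.6 CPM to 709, 461, 487 and 163 CPM, a 13.7-fold difference of means. The groups of both regions stood well apart. In the initial segment the values were 7.51, 11.4, 5.58 and 6.49 CPM at 3 months and 31.2, 39.4, 98.9 and 243 CPM at 21 months (13.3-fold), and in the cauda 27.8, 21.4, 46.3 and 16.7 CPM and 81.3, 176, 290 and 350 CPM (7.99-fold). In the corpus they were 41.1, 44.2, 40.2 and 74.6 CPM and 82.8, 265, 389 and 134 CPM (4.35-fold). These groups also did not overlap, although the lowest 21-month library of the corpus lay close to the highest 3-month one. The caput values of 7.42, 14.6, 6.85 and 6.49 CPM and of 51.2, 23.3, 19.8 and 9.12 CPM overlapped through replicate 2 at 3 months. This library had 49.7% Gm42418 and a TMM factor of 0.479. As shares of all counts, the constant and V genes together did not overlap (0.000731% to 0.000884% and 0.00106% to 0.00639%). Those counts include the Gm42418 reads, which lower the share of replicate 2, so the shares do not show that the groups stand apart. The testis groups overlapped, at 1.47, 1.76, 1.16 and 1.45 CPM and at 1.55, 3.05, 10.97 and 3.33 CPM.

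**Figure D1:**
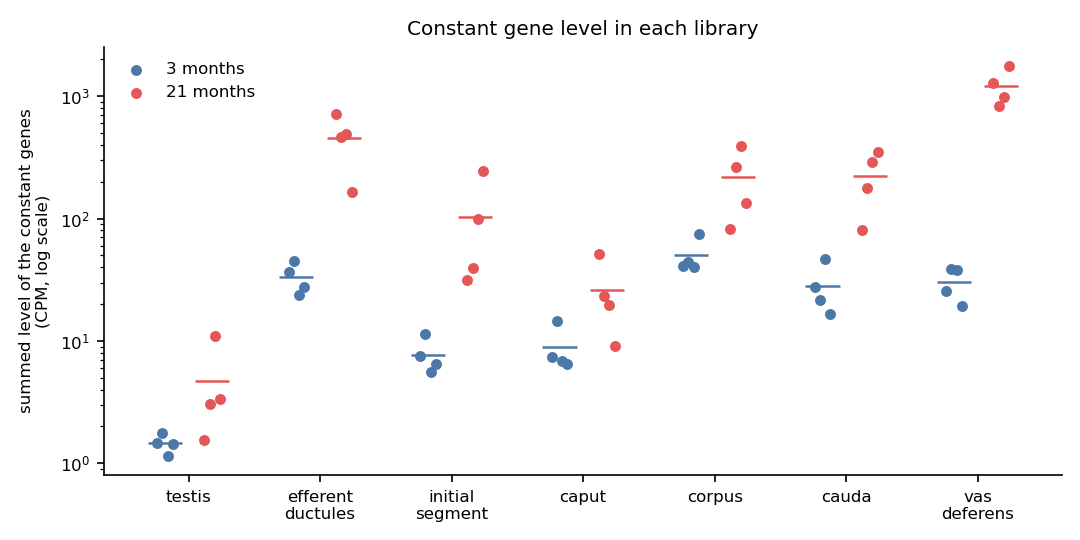
Summed level of the 13 immunoglobulin constant genes in CPM (log axis) in each library of the 7 regions at 3 and 21 months; each point is a library and the line marks the mean of 4. The 21-month vas deferens libraries lie between 834 and 1748 CPM, above all other libraries. Those of the testis lie lowest except replicate 3 at 21 months, which lies within the ranges of the caput and initial segment.

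Each age comparison was tested gene by gene within a region with edgeR's quasi-likelihood test over all genes with at least 10 reads, and a gene was called at a Benjamini-Hochberg adjusted p under 0.05 and a fold of at least 1.5. No member was called lower at 21 months in any region, where between 0.0583% of all genes tested (cauda) and 3.83% (caput) were called lower, with 3.23% for the vas deferens, 0.92% for the corpus, 2.21% for the initial segment, 1.89% for the efferent ductules and 0.0799% for the testis. At an unadjusted p under 0.05, 1 member was lower in the testis and 0 in the other regions, and DESeq2 called none lower in any region. Because a member with no reads at 3 months enters the test only through its 21-month reads, the counts of tested members below describe the data and were not used as support.

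The vas deferens had the most calls. Of 12 constant and 131 V genes tested there, 11 and 87 were higher at 21 months, 98 members in all, against 7.78% of all genes tested in that region. The median log2 fold change of the tested members was 4.89, or 4.08 when the 43 members without a 3-month read were set to the bound that 3 reads over the group allow, beside 0.02 over all genes. Igkc, the single kappa constant gene (chr6:70726435-70726966, plus strand), was at 5.62, 11.9, 10.4 and 6.49 CPM at 3 months and at 520, 307, 375 and 543 CPM at 21 months, a log2 fold change of 5.67 ± 0.28 (SE; adjusted p = 8.61e-06). Ighm, the IgM constant gene (chr12:113418558-113422730, minus strand), rose from 14.4, 17.1, 20.5 and 9.01 CPM to 637, 454, 466 and 921 CPM, a log2 fold change of 5.34 ± 0.31 (adjusted p = 2.63e-05). For both genes all 21-month libraries lay more than 10-fold above all 3-month ones.

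The other isotypes of the vas deferens differed in how evenly they rose. Ighd, which is expressed together with Ighm on mature naive B cells, was at 1.10, 0.872, 1.37 and 0.643 CPM at 3 months and at 24.2, 8.75, 16.1 and 155 CPM at 21 months (log2 fold change 5.67 ± 0.98, adjusted p = 0.00351). Ighg2c had 0, 2, 7 and 0 reads at 3 months and 15.4, 16.7, 18.5 and 77.0 CPM at 21 months (7.87 ± 0.88, adjusted p = 0.000523). Replicate 4 was the highest library for both genes, and the groups did not overlap without it either, although the log2 fold change of Ighd was then 4.01. Ighg2b rose from 0.232, 1.74, 1.998 and 0 CPM to 38.7, 21.4, 41.5 and 10.2 CPM (4.82 ± 0.70, adjusted p = 0.00158), with replicate 4 the lowest at 21 months. Ighg3 had 6 reads over the 3-month libraries and was at 8.89, 0.801, 11.2 and 5.42 CPM at 21 months (6.14 ± 0.90, adjusted p = 0.0016). Igha, the IgA constant gene (chr12:113254830-113260236, minus strand), showed the smallest called difference, from 3.53, 5.57, 2.16 and 2.95 CPM to 19.5, 8.33, 28.5 and 3.67 CPM (2.09 ± 0.54, adjusted p = 0.021), and its groups overlapped. Ighg1 also overlapped, at 0, 1.21, 0 and 0.0536 CPM and at 4.11, 3.90, 2.13 and 0.903 CPM (3.24 ± 0.92, adjusted p = 0.0308). Its log2 fold change ran from 2.80 to 6.77 with a library left out, and DESeq2 did not call it (adjusted p = 0.132). The calls of Igha and Ighg1 were lost when any of 4 and 5 single libraries was left out, replicates 1, 3 and 4 at 3 months among them for both genes (adjusted p up to 0.0673 and 0.0925), whereas the other constant genes named here stayed called throughout.

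Lambda transcripts of the vas deferens rose as well. Iglc2 was at 0, 0.268, 0.158 and 0 CPM at 3 months and at 5.98, 6.30, 9.11 and 12.6 CPM at 21 months, a log2 fold change of 6.30 (adjusted p = 0.000204). Iglc3 had 3 reads at 3 months and 421 at 21 months, a ratio, after scaling to library size, of 140 with a counting interval of 47.4 to 680 (adjusted p = 0.000362). Iglc1 rose by 3.80 (log2, adjusted p = 0.000964), and Iglc4 had 0 and 10 reads (at least 3.32-fold higher, adjusted p = 0.136). The Iglc3 exons overlap a gene on the opposite strand and those of Iglc2 a joining segment, and the strand setting of the counting is not given in the sources used here, so reads of these neighbours could be included. Ighe, the IgE gene, had 12 reads over all 56 libraries.

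Among V genes of the vas deferens, Igkv19-93 and Ighv1-9 had the largest fitted changes, with 0 reads at 3 months and 730 and 363 reads at 21 months, at least 242-fold and at least 120-fold higher (adjusted p = 0.0288 and 0.0178). Most of these reads came from replicate 2, and the Igkv19-93 call was lost without any one of the 3-month libraries (adjusted p up to 0.0666). Igkv3-2 had 3 reads at 3 months and 1402 at 21 months, a ratio scaled to library size of 465 with a counting interval of 159 to 2257 (adjusted p = 0.00111). The smallest called V gene difference was that of Igkv1-117, 2.87 on the log2 scale (adjusted p = 0.0426), whose groups overlapped and which lost its call in 5 of the 8 fits with a library left out (adjusted p up to 0.121).

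Genes of B cells, chosen with earlier results of these data known, moved with the immunoglobulin genes in this region. All 16 of 16 listed B cell genes were called higher in the vas deferens, and their summed level ran from 14.2 to 20.2 CPM at 3 months and from 86.1 to 650 CPM at 21 months. Replicate 4 held this highest value, and it also had the highest Ighd, Ighg2c and Ighm and the lowest Ighg2b and Igha. Of 15 plasma cell genes, 6 were higher (Derl3, Irf4, Jchain, Mzb1, Pou2af1 and Tnfrsf13b). Jchain, which joins IgM pentamers and IgA dimers, rose from 2.72, 2.21, 3.26 and 1.61 CPM to 60.9, 37.8, 45.2 and 46.3 CPM (4.27 ± 0.22, adjusted p = 8.61e-06), without the spread that the B cell genes showed.

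Markers of other cells were measured in the same libraries. All 8 of 8 T cell markers were higher in the vas deferens, with sums of 6.54 to 10.4 CPM at 3 months and 22.2 to 60.6 CPM at 21 months. Macrophage and dendritic markers summed to 134 to 170 CPM and 105 to 173 CPM, with Cd68 alone of 8 called higher, and none of 5 red blood cell and none of 5 adipocyte and lymphatic markers was called in edgeR (at an unadjusted p under 0.05, 1 of each list was lower). Of the 7 region markers, Adam28 (0.404 ± 0.149 and 1.48 ± 0.376 CPM, SD, n = 4), Spint3 (0.779 ± 0.256 and 3.10 ± 1.94 CPM) and Wfdc9 (3.50 ± 0.926 and 11.4 ± 8.84 CPM), which are markers of epididymal segments, were called higher in the vas deferens at 21 months. Akr1b7, the marker of the vas deferens itself, was at 22468 ± 1282 and 15708 ± 3368 CPM. The part of tissue from other segments in the immunoglobulin difference was not tested. Of 18 homing and survival factor genes, 7 were higher in the vas deferens (Cxcl13, Cxcr3, Cxcr4, Il21, Lta, Ltb and Tgfb1). Cxcl13, the chemokine that draws B cells into follicles, was at 0.926, 0.805, 0.631 and 0.858 CPM at 3 months and at 6.89, 8.17, 3.33 and 14.8 CPM at 21 months (3.35 ± 0.42, adjusted p = 0.000902). It was the one gene of this list called higher in the efferent ductules, initial segment, corpus and cauda, and its fitted difference in the caput was 0.09 (adjusted p = 0.953). Of 12 genes listed for recombination and class switching, Bach2, a B cell transcription factor, and Vpreb3 were higher in the vas deferens and no other was higher in any region, while the proliferation marker Mki67 was called lower in the corpus, caput and efferent ductules. Of 11 immunoglobulin transport and Fc receptor genes, Fcer1g and Fcgr4 were higher and Fcer1a was lower in the vas deferens.

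In the efferent ductules, 9 of 11 constant and 18 of 79 V genes tested were higher at 21 months, 27 members against 2.82% of all genes. The median log2 fold change of the tested members was 4.20 (3.58 with the 25 members without a 3-month read at their bound) beside -0.04 over all genes. Ighm rose from 24.0, 23.1, 16.5 and 15.4 CPM to 369, 297, 252 and 94.6 CPM (3.69 ± 0.36, adjusted p = 0.00317), and Igkc from 7.45, 10.8, 4.70 and 7.29 CPM to 230, 117, 99.3 and 50.6 CPM (4.06 ± 0.44, adjusted p = 0.00317). Replicate 1 was the highest and replicate 4 the lowest of the 21-month libraries for both, and neither gene overlapped. Ighg2c rose from 5 to 586 reads (7.18 ± 0.63, adjusted p = 0.00317). The smallest called difference was that of Iglc2, from 20 to 142 reads (3.36 ± 0.59, adjusted p = 0.0131), a call lost without replicate 1 or 4 at 3 months (adjusted p up to 0.0573).

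Ighg1 was uneven between the libraries of the efferent ductules. It had 1, 0, 1 and 0 reads at 3 months and 56, 44, 933 and 0 reads at 21 months, so that replicate 3 held most of its reads and replicate 4 none. The ratio of reads scaled to library size was 719 with a counting interval of 199 to 5949 (adjusted p = 0.0266). Igha was at 0.839, 9.20, 0.600 and 2.35 CPM and at 37.6, 23.0, 18.4 and 2.91 CPM, a log2 fold change of 2.69 ± 0.83 that did not pass the test (adjusted p = 0.0756), and its groups overlapped. Igkv3-2 had 1 read at 3 months and 370 at 21 months, a ratio scaled to library size of 515 with a counting interval of 91.9 to 20411 (adjusted p = 0.00496). The count of 27 members fell to 5, 11, 8 and 8 when replicates 1 to 4 at 3 months were left out in turn. Ighm, Igkc, Ighg2c, Iglc1 and Igkv3-2 kept their calls, while Ighg1, Ighg2b, Ighg3 and Iglc3 lost theirs without any of the 3-month libraries, with adjusted p up to 0.099, 0.0825, 0.132 and 0.0745.

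Of the B cell genes, Blk, Cd22, Cd79a and Fcmr (4 of 16) were higher in the efferent ductules, with sums of 10.1 to 15.9 CPM at 3 months and 13.5 to 36.9 CPM at 21 months. Derl3, Jchain and Sdc1 (3 of 15) were higher among plasma cell genes. Pigr, the epithelial receptor that carries polymeric IgA and IgM into secretions, was at 4.20, 4.57, 2.44 and 6.32 CPM and at 11.4, 9.22, 8.08 and 8.10 CPM (1.08 ± 0.26, adjusted p = 0.0337), the only region in which it was called, and Fcer1g was the other of the 11 immunoglobulin transport and Fc receptor genes that was higher there. Also higher were 5 of 8 T cell markers (sums of 5.15 to 6.09 CPM and 13.2 to 14.7 CPM), 2 of 8 macrophage and dendritic markers and 4 of 5 red blood cell markers (17.1 to 25.1 CPM and 37.5 to 114 CPM). Gm42418 took 1.27% to 3.29% of the reads of the efferent ductules at 3 months and 4.93% to 22.2% at 21 months, and 26 members were called when it was left out of the library sizes. Adam28, the marker of the adjoining initial segment, was near 0 in replicates 1 and 4 at 21 months and higher in replicates 2 and 3. The share of blood and of adjoining initial segment in the immunoglobulin difference was not tested.

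In the initial segment, 5 of 10 constant and 3 of 25 V genes tested were higher at 21 months, 8 members against 2.75% of all genes. The count of 8 moved with the filter and with single libraries left out, as given at the end. The median log2 fold change of the tested members was 4.71 (2.68 with 20 members at their bound) beside -0.01 over all genes. Igkc rose from 0.567, 3.79, 0.587 and 0.649 CPM to 11.2, 12.1, 37.1 and 96.9 CPM (4.70 ± 0.74, adjusted p = 0.00193). Ighm rose from 5.46, 5.85, 4.70 and 5.25 CPM to 15.3, 17.0, 52.5 and 132 CPM (3.33 ± 0.57, adjusted p = 0.00325). Replicate 4 was highest for both and the groups did not overlap. Igha rose with little spread, from 0.638, 0.163, 0.0587 and 0 CPM to 1.76, 2.29, 2.32 and 2.73 CPM (3.43 ± 0.55, adjusted p = 0.00228), although it missed the threshold when all 56 libraries shared one fit (adjusted p = 0.0768). Ighg2c had 1 read at 3 months and 90 at 21 months (6.09, adjusted p = 0.00233). Igkv3-2 had 1 read at 3 months and 193 at 21 months, 182 of them in replicate 4, and its log2 fold change of 7.14 fell to 3.50 without that library, and its call was lost in 5 of 8 fits with 1 library left out (adjusted p up to 0.232). Jchain, Cd22 and Cd72 were higher among plasma and B cell genes, together with 5 of 8 T cell markers. Of 5 red blood cell markers none was called in edgeR and 4 were higher at an unadjusted p under 0.05 (sums of 26.3 to 47.3 CPM and 26.1 to 131 CPM), and Prm2, a sperm marker, fell from 19.8 ± 8.49 to 5.11 ± 2.90 CPM (SD, n = 4; adjusted p = 0.00697). The part of either in the immunoglobulin difference was not tested.

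In the caput, the region with fewest tested members, Igkc alone was called higher, 1 of 21 tested members against 1.88% of all genes, from 0.928, 2.23, 0.905 and 1.29 CPM to 19.0, 7.44, 5.62 and 2.64 CPM (2.83 ± 0.54, adjusted p = 0.00888). Its groups did not overlap and the call held with each library left out in turn. Ighm (log2 fold change 1.28, adjusted p = 0.0945) and Igha (1.93, adjusted p = 0.0516) did not pass. The median over tested members was 2.29 (1.45 with 5 members at their bound) beside -0.01 over all genes. Jchain was the 1 of 15 plasma cell genes called higher and no B cell gene was in edgeR (1 at an unadjusted p under 0.05), while 4 of 8 T cell markers were (sums of 4.50 to 6.66 CPM and 11.04 to 16.1 CPM). Hba-a1 was called higher among 5 red blood cell markers, whose sums were 9.08 to 16.7 CPM and 16.3 to 73.3 CPM and of which all 5 were higher at an unadjusted p under 0.05, and Adgre1 and Cd209a among 8 macrophage and dendritic markers (71.5 to 91.8 CPM and 93.3 to 106 CPM). Prm2 fell from 47.9 ± 14.4 to 26.8 ± 4.87 CPM (adjusted p = 0.0216) and Rnase13 from 1140 ± 494 to 566 ± 87.7 CPM (adjusted p = 0.0223). Their part in the immunoglobulin difference was not tested.

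The corpus had the highest summed constant level at 3 months together with a moderate difference with age. There, 10 of 11 constant and 4 of 74 V genes tested were higher at 21 months, 14 members against 1.11% of all genes, with a median log2 fold change of 2.58 (2.24 with 13 members at their bound) beside -0.01. Igkc rose from 13.3, 14.2, 10.9 and 26.2 CPM to 25.3, 72.7, 127 and 44.2 CPM (2.05 ± 0.37, adjusted p = 0.00588) and Ighm from 23.2, 23.3, 21.0 and 46.1 CPM to 37.5, 141, 155 and 63.4 CPM (1.79 ± 0.35, adjusted p = 0.00931). For both genes replicate 1 at 21 months lay below replicate 4 at 3 months. Ighg2b separated the ages more widely, at 0.291, 1.60, 0.212 and 0.304 CPM and at 2.44, 24.9, 27.0 and 4.86 CPM (4.61 ± 0.74, adjusted p = 0.00233). Ighg1 went from 2 to 119 reads, a ratio scaled to library size of 64.7 with a counting interval of 17.5 to 541 (adjusted p = 0.0107). Replicate 3 held 84 of the 119 reads, and the log2 fold change of 5.87 was 4.24 without it and 8.07 without replicate 3 at 3 months, which held both 3-month reads. Igkv4-59 went from 1 to 75 reads, 66 of them in replicate 2 (log2 fold change 5.81, adjusted p = 0.0463), and its call was lost in 5 of 8 fits with a library left out, with a log2 fold change of 3.28 at the lowest. Igha was at 1.97, 2.16, 6.41 and 1.37 CPM and at 2.31, 8.65, 44.1 and 8.47 CPM and did not pass (2.32 ± 0.65, adjusted p = 0.0649).

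When all 56 libraries shared one fit, the corpus calls of Igkc, Ighm, Ighd, Iglc1 and Iglc3 were lost (adjusted p = 0.0777, 0.0644, 0.22, 0.113 and 0.0965), and the count of 14 fell to 8 without replicate 3 at 3 months. Blk, Cd22 and Ms4a1 were higher among B cell genes and Mzb1 and Pou2af1 among plasma cell genes of the corpus, whereas 0 of 8 T cell markers passed in edgeR (5 at an unadjusted p under 0.05). Red blood cell markers were higher for 4 of 5 genes, at sums of 63.7 to 79.5 CPM and 96.1 to 403 CPM, and their part in the immunoglobulin difference was not tested.

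In the cauda, Igkc, Iglc1 and Iglv2 were called higher among 104 tested members, 3 members against 0.07% of all genes. DESeq2, and the fit of all 56 libraries together, called many more, with the counts given at the end. At an unadjusted p under 0.05, 82 members were higher, against 3.54% of all genes. The median log2 fold change was 3.67 (2.97 with 25 members at their bound) beside 0.0028. Igkc was at 5.69, 3.89, 10.9 and 2.90 CPM at 3 months and at 20.7, 64.3, 85.0 and 112 CPM at 21 months (3.59 ± 0.54, adjusted p = 0.0411), without overlap. Ighm did not pass, at 15.1, 9.26, 19.9 and 10.3 CPM and 28.2, 64.4, 86.7 and 191 CPM (2.77, adjusted p = 0.0735), nor did Igha, at 5.35, 3.01, 10.7 and 1.63 CPM and 15.1, 15.5, 63.1 and 14.4 CPM (2.37 ± 0.63, adjusted p = 0.194), although neither gene overlapped. Ighg3 had 0 reads at 3 months and 1, 9, 157 and 29 reads at 21 months, at least 69.4-fold higher (adjusted p = 0.231). Replicate 3 at 3 months, which stood apart in its macrophage markers, also had the highest T cell (33.4 CPM) and B cell (35.4 CPM) sums of its group, and without it 5 members were called. Leaving out single libraries ended the calls of the full set, with the Igkc call lost in 6, that of Iglc1 in 7 and that of Iglv2 in 8 of 8 fits (adjusted p up to 0.138, 0.141 and 0.154), that of Iglv2 also without replicate 3 at 3 months. Jchain passed, from 1.90, 0.885, 2.69 and 0.987 CPM to 6.34, 22.9, 24.5 and 20.8 CPM (3.53 ± 0.48, adjusted p = 0.0287), whereas 0 of 16 B cell genes did in edgeR (4 at an unadjusted p under 0.05).

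The testis had the lowest summed constant gene level by its mean at both ages. Single genes could differ, as Ighg3 at 3 months averaged 0.226 CPM in the testis and 0.182 CPM in the efferent ductules, the next highest region. Igkc had 0 reads in all 3-month libraries and 1, 4, 74 and 14 reads at 21 months, at least 30.3-fold higher (adjusted p = 0.0329), and it was the 1 of 23 tested members called higher, against 0.173% of all genes. DESeq2 did not call it, its adjusted p was 1.0 when all 56 libraries shared one fit, and the call was lost without replicate 1, 2 or 3 at 3 months or replicate 3 at 21 months (adjusted p up to 0.123). Ighm had 15, 20, 14 and 16 reads and 19, 40, 111 and 30 reads (log2 fold change 1.57, adjusted p = 0.0748). The median over tested members was -0.04 beside -0.01 over all genes. Cd68 was called higher among macrophage and dendritic markers, from 1.64 ± 0.199 to 3.77 ± 0.673 CPM (SD, n = 4; adjusted p = 0.00168), and of 5 red blood cell markers none was called in edgeR and 3 were higher at an unadjusted p under 0.05 (sums of 24.7 to 31.8 CPM and 22.6 to 59.5 CPM). Their part in the Igkc difference was not tested.

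Whether the age difference itself differed between the 7 regions was tested over all 56 libraries with the age by region interaction. It passed at an adjusted p under 0.05 for 11 of 181 tested members, beside 20.2% of all genes. Many V genes had few or no reads in several regions, which limits this test for them, so nothing was read from these shares. Of 13 constant genes tested, 6 passed, namely Ighd (2.48e-05), Ighm (0.000574), Iglc3 (0.00423), Ighg1 (0.0177), Igkc (0.01998) and Ighg2c (0.0417). Igha did not pass, with an adjusted p of 1.0. Leaving out the libraries of one replicate number left 3 to 6 members, with 3 without replicate 4.

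Isotype composition was compared as the share of each isotype among heavy chain constant reads. IgM made up the largest share in all 48 libraries outside the testis, from 45.1% to 95.9% of reads, and from 52.4% to 96.9% when reads were first divided by the exon length of each gene. In the vas deferens IgA took 18.2%, 20.8%, 8.13% and 23.3% of heavy constant reads at 3 months and 2.60%, 1.62%, 4.88% and 0.313% at 21 months (17.6% ± 6.65 and 2.35% ± 1.93, SD, n = 4). The groups did not overlap, also per kilobase of exon, where they spanned 6.00% to 17.7% and 0.216% to 3.55%. In the exact two-sided permutation test p was 0.0286, the smallest that 4 against 4 libraries allow, and 0.21 after adjustment over 22 such comparisons. The IgA level itself was not lower in the vas deferens, as its CPM above show.

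In the cauda the IgA share was 24.5%, 17.3%, 31.0% and 11.9% at 3 months and 26.4%, 14.9%, 32.8% and 6.25% at 21 months (21.2% ± 8.31 and 20.1% ± 11.8, exact permutation p = 0.886). The difference between the cauda and the vas deferens in this respect was not tested. IgG subclasses together made up 2.22%, 11.4%, 1.84% and 0.634% of heavy constant reads in the corpus at 3 months and 24.8%, 18.5%, 19.9% and 12.9% at 21 months (4.02% ± 4.95 and 19.0% ± 4.91, exact permutation p = 0.0286, adjusted p = 0.21). Per kilobase these groups overlapped, with a highest 3-month value of 12.3% and a lowest 21-month value of 10.2%. IgM in the vas deferens went from 71.7% ± 5.78 to 83.0% ± 4.61 (exact permutation p = 0.0286, adjusted p = 0.21), and its groups also overlapped per kilobase. None of the 22 comparisons passed after adjustment. IgD took 13.2% of heavy reads in replicate 4 of the vas deferens at 21 months.

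**Figure D2:**
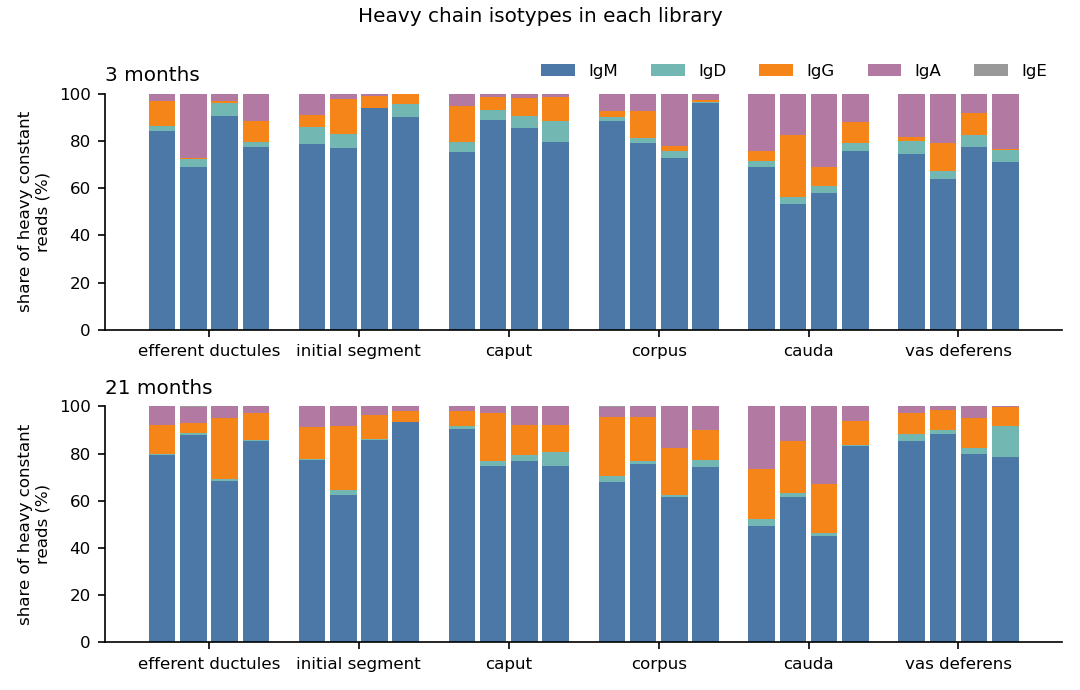
Share of IgM, IgD, IgG, IgA and IgE among heavy chain constant reads (percent of reads) in each library of the 6 regions outside the testis, one stacked bar per library. IgM is the largest share in all 48 bars, and the IgA share of the vas deferens is 8.13% to 23.3% at 3 months and 0.313% to 4.88% at 21 months.

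Kappa chains predominated over lambda by group means in all regions but the testis. There the kappa share of light chain constant reads averaged 0% at 3 months and 66.4% at 21 months, on few reads. The kappa share of light chain constant reads was 93.4% ± 4.31 and 95.3% ± 0.695 in the vas deferens at 3 and 21 months, and 94.1% ± 1.96 and 89.0% ± 3.70 in the cauda (exact permutation p = 0.0571, adjusted p = 0.314). Outside the testis, the lowest share of a 21-month library was 83.3% in replicate 3 of the efferent ductules (Wilson 95% interval 81.6% to 84.9%, counting error only). In that library Iglv1 held 134 of 154 lambda V reads (87.0%), Iglc3 had 228 of the 292 reads of its group and Ighg1 had 933 of 1033. Lambda V reads were led by Iglv1 in vas deferens replicates 1 to 3 (78.1%, 76.7% and 54.7%), by Iglv3 in replicate 4 (44.8%), and by Iglv2 in replicate 3 of the corpus (58.9%) and of the cauda (49.0%).

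The number of V genes detected rose with age in parallel with the reads on them. In the vas deferens, 134, 146, 147 and 78 V reads at 3 months covered 13, 15, 23 and 10 V genes with at least 3 reads, and 3692, 3070, 3219 and 4315 V reads at 21 months covered 123, 92, 108 and 130. Efferent ductules went from 5 to 12 such genes per library to 77, 57, 56 and 29, and the initial segment from 0 to 4 to 8, 8, 19 and 30. Corpus libraries held 15, 14, 13 and 30 and then 30, 46, 63 and 39, and cauda libraries 9, 7, 28 and 7 and then 34, 71, 82 and 74. In the caput there were 0 to 2 and 15, 10, 9 and 2. The groups overlapped in the corpus and the caput.

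At a matched number of reads the difference in V gene number was small. The number expected in 50 V reads, computed exactly from each library, was 27.8, 23.7, 30.4 and 24.9 in the vas deferens at 3 months and 31.3, 24.2, 30.3 and 28.6 at 21 months. Means were 29.2 and 29.8 in the cauda, 22.5 and 26.3 in the corpus, and 19.5 and 25.6 in the efferent ductules, with overlapping groups in each. The lowest values were those of the testis, with means of 12.3 and 14.1.

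**Figure D3:**
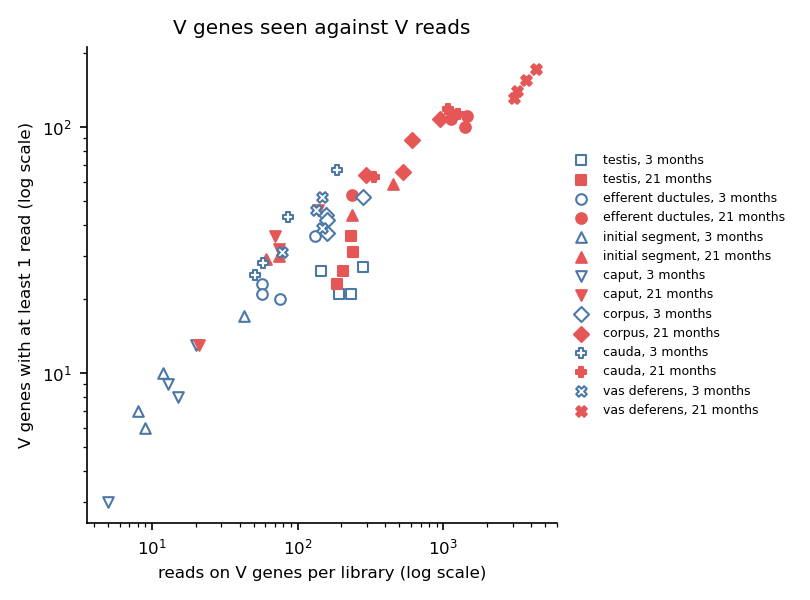
V genes with at least 1 read against V reads per library (both axes logarithmic), one point per library. The number of V genes follows the number of V reads outside the testis, up to 173 genes, while the 8 testis libraries, at 145 to 281 V reads, show 21 to 36 genes.

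Single V genes took large shares of their chain in some libraries, and the leading gene differed between regions. Shares are given where a library had at least 50 V reads of the chain (36 libraries for heavy, 36 for kappa and 8 for lambda), with Wilson 95% intervals for counting error only. In the corpus, Ighv14-2 led the heavy chain in all 4 libraries at 3 months, with 42 of 76 reads in replicate 1 (55.3%, 44.1% to 65.9%) and 38.7%, 41.7% and 37.4% in the others. At 21 months it held 35.2%, 13.8%, 14.8% and 34.8%, and in replicate 3 Ighv11-2 was ahead with 18.9%. The level of Ighv14-2 in the corpus was 3.06, 2.02, 1.85 and 3.50 CPM at 3 months and 4.25, 2.78, 4.67 and 5.58 CPM at 21 months, so its lower share at 21 months went with more reads on other V genes and not with fewer of its own. In the vas deferens at 21 months it held at most 1.02% of heavy V reads, and no testis library had a read.

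The cauda, which adjoins the corpus, also held Ighv14-2. It led there in replicate 3 at 3 months (11.5%) and in replicate 1 at 21 months (20.2%), while the other 21-month cauda libraries had 6.35%, 5.88% and 3.52%. Against the mean of the other 6 regions at 21 months, Ighv14-2 was higher by 4.63 ± 0.47 (log2, adjusted p = 4.41e-09) in the corpus and by 2.97 ± 0.55 (adjusted p = 6.72e-05) in the cauda. It was named because it led libraries of this same set, so these region differences describe it and do not stand as independent evidence.

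Ighv11-2 and Igkv14-126 are known as the heavy and light V genes of a receptor that recurs among B-1 cells, the innate-like B cells of body cavities that make natural IgM. Igkv14-126 was uneven between corpus libraries, with 32.4%, 41.2%, 1.45% and 6.45% of kappa V reads at 3 months and 2.15%, 1.98%, 40.9% and 44.8% at 21 months. Ighv11-2 held 2.63%, 24.0%, 2.38% and 2.44% of heavy V reads at 3 months and 0%, 0.743%, 18.9% and 17.6% at 21 months. The 3 corpus libraries with most Ighv11-2 thus also had most Igkv14-126, and replicate 1 at 3 months was high in Igkv14-126 alone. In the vas deferens at 21 months Igkv14-126 took 1.87%, 13.9%, 17.7% and 2.94% and Ighv11-2 1.24%, 11.4%, 24.4% (286 of 1171 reads) and 5.06%, so that replicates 2 and 3 were the higher ones for both. In the efferent ductules at 21 months replicate 1 was highest for both, with 15.8% and 10.8%, and in the cauda replicate 3 was, with 14.5% and 8.54%. Counts per gene do not show which chains were paired in a cell, and this pair of genes was looked at together after their values were seen.

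At 21 months some libraries of different regions with the same replicate number shared a leading V gene. Ighv1-9 held 271 of 588 heavy V reads (46.1%, 42.1% to 50.1%) in efferent ductules replicate 2 and 275 of 976 (28.2%, 25.4% to 31.1%) in vas deferens replicate 2, and Igkv19-93 held 437 of 772 kappa V reads (56.6%, 53.1% to 60.1%) and 654 of 1991 (32.8%, 30.8% to 34.9%) in the same libraries. In corpus replicate 2 Igkv19-93 reached 11.2% with 34 reads while Ighv1-9 had 4 reads (1.49%), and in cauda replicate 2 Ighv1-9 reached 6.12% and Igkv19-93 1.34%. Ighv1-9 was also high in initial segment replicate 3, with 25 reads (20.8%). Ighv1-26, whose reads could be exchanged with those of Ighv1-18, led heavy reads in replicate 4 of the vas deferens (239 of 1562, 15.3%) and of the cauda (88 of 455, 19.3%) and also in replicate 1 of the efferent ductules (61 of 544, 11.2%), and Ighv3-6 held 13.9% in vas deferens replicate 1 and 12.1% and 11.1% in replicate 2 of the efferent ductules and cauda.

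Igkv3-2 was spread over more numbers. It held 182 of 307 kappa V reads (59.3%, 53.7% to 64.6%) in replicate 4 of the initial segment, 37.6% and 34.2% in replicates 3 and 4 of the efferent ductules, 18.7% and 28.6% in replicates 1 and 4 of the vas deferens and 17.9% in replicate 4 of the cauda. Initial segment replicate 3 was led instead by Ighv6-3 (45 of 120 heavy reads, 37.5%) and Igkv4-79 (39 of 115 kappa reads, 33.9%). Ighv1-82 took 20.7% of heavy V reads, 89 in number, in replicate 3 of the efferent ductules, the library with most Ighg1.

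Other leading V genes led 1 library of a region and age. Among heavy chains, Ighv1-53 held 33.3% (23 reads) in replicate 2 of the efferent ductules at 3 months and 16.9% (21 reads) in replicate 4 of the initial segment at 21 months, and Ighv1-80 held 26.9% (14 reads) in replicate 1 of the caput at 21 months. Ighv6-3 held 17.5%, Ighv14-4 16.7% and Ighv7-1 9.09% in replicates 1 to 3 of the vas deferens at 3 months, and Ighv4-1 9.49% in replicate 3 of the cauda at 21 months. These shares rest on 6 to 50 reads. Among kappa chains at 3 months, Igkv1-110 held 34.4% in replicate 2 of the efferent ductules, Igkv5-43 21.7% and Igkv6-25 18.1% in replicates 3 and 4 of the corpus, Igkv12-89 7.22% in replicate 3 of the cauda, and Igkv15-103 20.6%, Igkv1-117 24.6% and Igkv4-59 13.4% in replicates 1 to 3 of the vas deferens. At 21 months, Igkv1-110 held 33.6% (45 reads), Igkv4-63 9.85% (59 reads) and Igkv8-28 19.4% (125 reads) in replicates 1 to 3 of the cauda, Igkv6-15 30.1% (28 reads) and Igkv4-59 21.8% (66 reads) in replicates 1 and 2 of the corpus, and Igkv4-59 16.7% (12 reads) in replicate 1 of the caput.

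As a description of all V genes together, the shared part of V usage (the sum over V genes of the smaller of the shares in a pair of libraries of different regions) averaged 37.6% for heavy chains over 36 pairs with the same number and 33.7% over 110 pairs with different numbers at 21 months. For kappa chains the averages were 38.0% and 31.8%. Pairs with the same number averaged higher in 10 of 14 pairs of regions for heavy and in 12 of 14 for kappa chains. At 3 months, with 7 and 20 pairs, they averaged 21.1% and 19.3% for heavy and 28.6% and 25.8% for kappa chains. Pairs share libraries and were not tested.

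**Figure D4:**
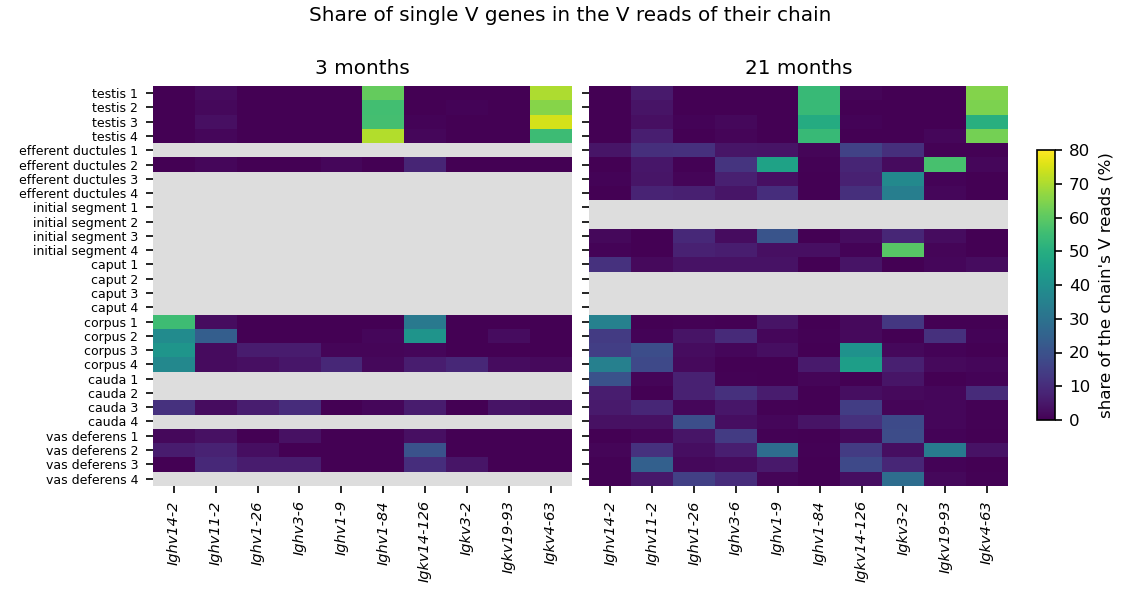
Share of each library's heavy or kappa V reads (percent, colour scale from 0 to 80) held by 10 V genes. Columns are V genes, rows are libraries grouped by region, and each age has its own panel. Grey marks libraries under 50 V reads of that chain. Ighv14-2 stands out in the corpus, Ighv1-9 and Igkv19-93 in replicate 2 of efferent ductules and vas deferens at 21 months, and Ighv1-84 and Igkv4-63 in the testis.

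The testis had V gene reads with few constant reads. Its libraries held 193, 231, 281 and 145 V reads at 3 months and 187, 205, 231 and 240 at 21 months, beside 26, 32, 21 and 25 and 28, 56, 201 and 60 constant reads. This gave 115 to 1338 V reads per 100 constant reads, where the 48 other libraries had 4.13 to 34.2. The summed V level was 11.9 CPM at both ages (ratio 0.998). Of 1713 V reads, Ighv1-84 and Igkv4-63 held 60.5%, and 70.8% fell on 3 genes, with Ighv1-82 the third, while 69 V genes had any read.

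Ighv1-84 had 50, 64, 68 and 51 reads in the testis at 3 months and 47, 50, 60 and 57 at 21 months, 49.2% to 70.8% of heavy V reads in each library. Of its 515 reads in all libraries, 447 (86.8%) were from the testis. Igkv4-63 had 78, 76, 119 and 40 reads and 65, 72, 55 and 85 reads, 50.5% to 74.8% of kappa V reads, and 590 of its 792 reads (74.5%) were from the testis. Outside the testis it had 80 reads in replicate 2 of the vas deferens and 59 in replicate 2 of the cauda at 21 months, where it led the kappa chain. Ighv1-82 had 20, 28, 28 and 9 and then 21, 27, 20 and 22 reads in the testis. Every testis library held each of the 3 genes, and the ages overlapped. At 21 months, against the mean of the other regions, Ighv1-84 was higher in the testis by 4.42 ± 0.54 (log2, adjusted p = 1.33e-08), Igkv4-63 by 3.73 ± 0.61 (adjusted p = 2.32e-06) and Ighv1-82 by 2.14 ± 0.79 (adjusted p = 0.0166), while Igha (-7.08), Igkc (-5.86) and Ighm (-5.36) were lower. By the same comparison Ighv1-82 was also higher in the efferent ductules (2.80 ± 0.77, adjusted p = 0.00335) and the vas deferens (2.61 ± 0.77, adjusted p = 0.00659). Igkv4-63 was also higher in the vas deferens (1.97 ± 0.73, adjusted p = 0.0296). Ighv1-82 was thus not particular to the testis. The V genes were chosen as leaders in these libraries, so their region differences are descriptive.

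V pseudogenes, which are no members, had reads in the testis as well. Ighv1-83 (chr12:115963817-115964250), which lies between Ighv1-82 (chr12:115952538-115953005) and Ighv1-84, had 106 reads in the testis and 2 elsewhere. Igkv17-134 and Igkv14-134-1 had 69 and 27 reads in the testis and 0 in the other 48 libraries. The 16 listed B cell genes summed to 42.4 to 55.8 CPM in the testis at 3 months and 50.3 to 53.5 CPM at 21 months, above the sums of all other libraries except those of the vas deferens at 21 months. Pax5 held the largest part, at 27.3 and 27.6 CPM, followed by Cxcr5 at 4.59 and 5.38 CPM, and Cr2, Tnfrsf13c, Fcrla and Fcmr had means between 2.02 and 4.04 CPM. Cd79a, Cd79b and Blk, of the B cell receptor complex and its signalling, were near 0, with means from 0.0138 to 0.0959 CPM. Rag1, the recombinase that joins V segments, was at 1.38 to 2.81 CPM. Whether the V reads of the testis come from rearranged genes cannot be read from counts per gene.

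**Figure D5:**
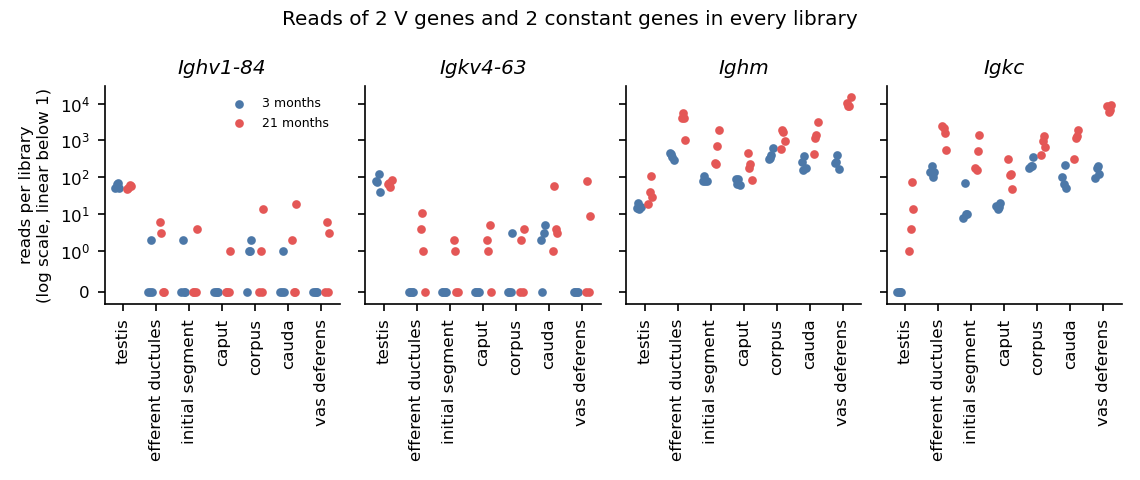
Reads per library on Ighv1-84, Igkv4-63, Ighm and Igkc in the 7 regions at 3 and 21 months (log axis, linear below 1), one point per library. Ighv1-84 and Igkv4-63 have 40 to 119 reads in all 8 testis libraries, where Igkc has 0 to 74.

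The regions were compared with one another at 21 months, each against the mean of the other 6 on the log scale, over 28 libraries from the same 4 mice. Higher in the vas deferens were 11 of 13 constant and 127 of 160 V genes tested (19.3% of all genes), in the efferent ductules 11 and 50 (22.3%), followed by 4 and 54 for the cauda (17.9%) and 5 and 21 for the corpus (16.8%). In the initial segment 0 and 5 were higher (18.6%), in the caput 0 (15.3%) and in the testis 0 and 9 (40.6%). Lower than the mean of the others were 11 constant and 44 V genes for the testis (31.8% of all genes), 8 and 4 for the caput (12%) and 1 and 3 for the initial segment (15.9%). These counts fell to 34 without replicate 2 or 3, to 5 without replicate 3 and to 1 without replicate 2 or 3. Members entered this test with at least 10 reads over the 28 libraries, which many reach only through the regions where they are high, so these counts describe the data and nothing was read from their distance to the background. Without the libraries of replicate 1, 34 members were higher in the efferent ductules, and without those of replicate 2 or 3, 15 or 16 were higher in the corpus.

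By isotype the regions ranked differently. The vas deferens stood highest for Ighd (6.40 ± 0.36, adjusted p = 3.21e-15), Ighg2c (4.43), Igkc (4.08) and Ighm (3.89), and less so for Igha (2.26). Igha was highest relative to the other regions in the cauda (3.30 ± 0.46, adjusted p = 8.95e-07), followed by the efferent ductules (2.84) and the corpus (2.40) (SE 0.49 and 0.51). Differences between these 3 estimates were not tested. Ighg1 was higher in the efferent ductules alone of the 7 regions (4.09 ± 0.60, adjusted p = 8.96e-07), where replicate 3 held most of its reads. Mean Igkc at 21 months was 436 CPM in the vas deferens, 124 in the efferent ductules, 70.6 in the cauda, 67.2 in the corpus, 39.3 in the initial segment, 8.67 in the caput and 1.27 in the testis. The libraries of the vas deferens did not overlap with those of the efferent ductules, whereas each later neighbour in this order overlapped with the one before it.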

How the data were processed

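Total RNA of 56 tissue samples (7 regions, 2 ages, 4 libraries each) was sequenced as stranded, ribosomal RNA-depleted, paired-end libraries. The authors trimmed reads with cutadapt, aligned them to mm10 (GRCm38) with HISAT2 and counted them per Ensembl gene with HTSeq, and they deposited whole-number counts. Versions, the strand option of counting and the treatment of multiply mapped reads are not given in the sources used here. The methods name a column kit and the labels a phenol reagent for RNA extraction. All 56 columns matched a sample by name.

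Groups came from the labels. Gene types, exon lengths and sequences came from GENCODE M21 and GRCm38. Genes with at least 10 reads over the libraries fitted were tested with edgeR 4.0.16 (TMM, quasi-likelihood F test; R 4.3.3, limma 3.58.1), by age within each region (8 libraries), between regions at 21 months (28 libraries) and for the interaction of age and region (56 libraries). A gene was called at a Benjamini-Hochberg adjusted p under 0.05 over all genes tested and a fold of at least 1.5. DESeq2 1.42.0, the tool of the study, was an alternative, as were other scalings, filters and sample sets. The steps were tested on simulated data. Shares were compared with exact two-sided permutation tests, and shares of single libraries have Wilson 95% intervals, which cover counting error only, as does the floor of 3 reads. Depth was 11125279 to 20561967 reads per library. Reads over V to J joins may align in part or not at all, and somatic mutation lowers alignment to germline V genes, so V counts are a lower count of V transcripts.

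Constant genes, V genes that led their chain in a library with at least 50 V reads of that chain, and the 2 largest and 2 smallest called differences per region are named. The members, lists and rules were chosen with earlier results of these data known. The p-values measure the spread between these libraries.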

Additional observations from a re-analysis of the deposited data

Results flagged for a closer look

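Among 179 groups of 4 libraries examined, 23 had 1 library far from the other 3 by Dixon's criterion, where chance gives about 1 in 20. At 3 months these were the summed constant level of caput replicate 2 (14.6 CPM, with Ighm at 10.3 CPM) and corpus replicate 4 (74.6 CPM, with Ighm at 46.1 CPM and 30 V genes with at least 3 reads), Igkc in initial segment replicate 2 (3.79 CPM), Igha in corpus replicate 3 (6.41 CPM) and the 28 V genes of cauda replicate 3. Shares at 3 months that stood apart were IgG in initial segment replicate 2 (15%) and corpus replicate 2 (11.4%) and IgA in caput replicate 1 (5.13%).

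At 21 months, replicate 3 of several regions stood apart for switched isotypes, with Ighg1 at 57.1 CPM in the efferent ductules and 7.85 CPM in the corpus, Igha at 44.1 CPM in the corpus and 63.1 CPM in the cauda, Ighg3 at 9.87 CPM in the cauda and a kappa share of 83.3% in the efferent ductules. Testis replicate 3 had the lowest shares of the leading heavy (49.2%) and kappa (50.5%) V genes. Vas deferens replicate 4 stood apart for Ighd (155 CPM) and Ighg2c (77.0 CPM), caput replicate 1 for its IgM share (90.3%) and cauda replicate 4 for its IgG share (10.2%).

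The age difference differed between regions by the interaction test in edgeR for Ighd (adjusted p = 2.48e-05), Ighm (0.000574), Iglc3 (0.00423), Ighv1-82 (0.0113), Ighg1 (0.0177), Igkc (0.01998), Ighv4-1 (0.0341), Igkv4-91 (0.0411), Ighg2c (0.0417), Igkv12-89 (0.0425) and Ighv1-55 (0.0474).

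Of V pseudogenes, which no comparison used, 6 had at least 10 reads in the testis, and each of them had at most 2 elsewhere. They were Ighv1-83 (106 reads), Igkv17-134 (69), Igkv14-134-1 (27), Igkv3-12-1 (23), Igkv8-31 (22) and Ighv1-1 (12). Those with fewer testis reads were not listed.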

How the results depend on the processing

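None of the age differences of named genes that were recomputed reversed. Of 75 calls on named genes in single regions, 21 were lost under at least 1 other setting. With a library left out, 30 of 75 were lost in at least 1 fit. By recalculation under other settings, 26 of 714 lost the call, the most (10) with all 56 libraries in one fit. The 714 include those at an unadjusted p, which cannot lose a call. Not counted are settings that gave the gene no adjusted p, mostly filterByExpr, and DESeq2 for Igkc in the testis. Counts of members higher at 21 months moved beyond 1.5 times as follows, and the causes were not tested except that an unadjusted p calls more by construction. With edgeR's filterByExpr, which tests fewer genes, the counts were 33 in the vas deferens (98 in the report), 1 in the cauda (3), 6 in the corpus (14), 3 in the initial segment (8), 9 in the efferent ductules (27) and 0 in the testis (1). With no filter they were 17 in the cauda, 39 in the corpus, 5 in the caput (1), 22 in the initial segment and 2 in the testis, and 8 members were higher in the initial segment than in the other regions (5). With all 56 libraries in one fit they were 37 in the cauda, 6 in the corpus, 50 in the efferent ductules and 0 in the testis. DESeq2 gave 27 in the cauda and 0 in the testis. Library size scaling gave 27 in the corpus, 8 in the caput and 2 in the testis. At an unadjusted p under 0.05 there were 82, 52, 9, 29, 69 and 4 from cauda to testis, and 1 lower member in the testis (0).

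Leaving out a library gave 66 to 103 members for the vas deferens, 0 to 5 for the cauda, 8 to 16 for the corpus, 1 to 4 for the caput, 5 to 14 for the initial segment, 5 to 30 for the efferent ductules and 0 to 2 for the testis. Between regions the ranges were 115 to 135, 40 to 62, 15 to 31, 0 to 0, 2 to 7, 34 to 65 and 6 to 9 in the same order, with 34 in the efferent ductules without replicate 1 and 15 in the corpus without replicate 2, and the interaction gave 3 to 6. For members lower than in the other regions leaving out a replicate number gave 1 to 7 (initial segment), 5 to 11 (caput) and 34 to 36 (testis). With the replicate number as a replicate block, the counts were 100, 17, 20, 2, 9, 21 and 2 by age, 139, 58, 25, 0, 4, 60 and 8 by region and 13 for the interaction. Libraries of the 2 ages with the same number, which are from different mice, did not deviate together (mean correlations from -0.033 to 0.064 over regions). Those of different regions at 21 months had a mean correlation of 0.0025 (-0.225 to 0.248). Shared kappa V usage outside the testis averaged 38.0% for the same number and 31.8% for different numbers at that age. These values do not settle whether a number marks a mouse. The main fits did not pair samples, so the region and interaction p-values treat libraries of the same mice as independent. Few immunoglobulin reads limit the precision in the testis, caput and initial segment, where 13 to 25 V genes had enough reads to be tested.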
